A study of Homo sapiens with 6 samples.

Results

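The comparison described here is the second day of a coculture time course: the array of Caco-2 cells at 48 h set against the array at 24 h, which are 2 of the 6 arrays of the study. In both groups Caco-2 cells, 14 days old and grown on a porous membrane insert (a semi-permeable support), had been set above THP-1 cells in 12-well plates. The THP-1 cells had received PMA for 4 days beforehand. The groups differ in the hours of coculture, 24 or 48, and every array of the course, the 0 h array included, shares the same cells and pre-culture. Caco-2 is a human colon carcinoma line that differentiates into an enterocyte-like layer at confluence, and THP-1 is a line of human leukaemic monocytes, which become macrophage-like under PMA (phorbol myristate acetate). Each time has 1 array of 1 culture, without replicates, and no array of Caco-2 cells cultured alone to 24 or 48 h was analysed. All values below therefore have n = 1, no test was possible, no p-value is given, and the variation between cultures was not measured.

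Each gene was represented by its brightest Affymetrix probe set, and the MAS5 signal, a brightness on a linear scale, was floored at 16.2, the pooled median of all deposited signals. Of 19775 genes, 13114 had a signal above that floor on at least 1 of the 2 arrays and are called measured. A gene was counted as risen or fallen when its signals differed at least 2-fold, a log2 ratio (48 h over 24 h) of at least 1 in size. The robust SD of a log2 ratio, estimated from the differences between probe sets of the same gene, was 0.31 over all signals, 0.44 at signals of 16 to 32 and 0.12 from 1024 upward. This spread is the only technical error the arrays give, and it also holds differences between transcripts. Because dim genes are imprecise, counts are also given for bright genes, the 7374 with a signal of at least 100 at 24 or 48 h.

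Macrophage-like cells release cytokines such as TNF and interleukin-1 that reach the epithelium across the membrane. In epithelial cells these signals free NF-kB, a family of dimeric transcription factors, from its inhibitor IkB-alpha, the product of NFKBIA. NF-kB then drives chemokine genes, which recruit neutrophils and lymphocytes, and also its own inhibitors, NFKBIA and TNFAIP3 among them, which form a negative feedback loop. Interferons act through other factors, the STATs and IRFs, which bind interferon response elements in genes such as the IFIT family.

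On the second day, several genes of the NF-kB response, chemokines first among them, fell from levels that were still raised at 24 h. CXCL8 fell 7.24-fold, MMP1 4.92-fold, CXCL1 4.23-fold, TNFAIP3 3.55-fold and CCL20 3.29-fold. Some enterocyte and transport genes also fell, led by S100G at 3.36-fold. Rises were fewer and were led by a long non-coding RNA, the inflammatory caspase CASP5 (4.57-fold) and the interferon-stimulated gene IFIT2 (4.06-fold).

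Of the measured genes, 145 (1.11%) rose by 2-fold or more on the second day and 202 (1.54%) fell by as much. In 108 of these 347 genes the dimmer signal was at the floor, so that the fold is a lower bound, and in 251 the brighter signal was under 100. Among bright genes 39 (0.529%) were higher and 57 (0.773%) lower. The median log2 ratio of all measured genes was -0.01, with the middle 50% between -0.24 and 0.22, and 6405 ratios were positive against 6709 negative (51.2%). The counts were close to those of the step from 3 to 6 h, where 150 (1.13%) were higher and 201 (1.51%) lower, although among bright genes that step had fewer (30 and 26). The step from 0 to 1 h had 280 (2.16%) higher and 215 (1.66%) lower, and that from 1 to 3 h had 198 (1.52%) and 194 (1.49%). The largest counts belonged to the step from 6 to 24 h, with 312 (2.34%) and 357 (2.68%). Neighbouring steps share an array and differ in length, so these counts stand side by side without a test.

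**Figure D1:**
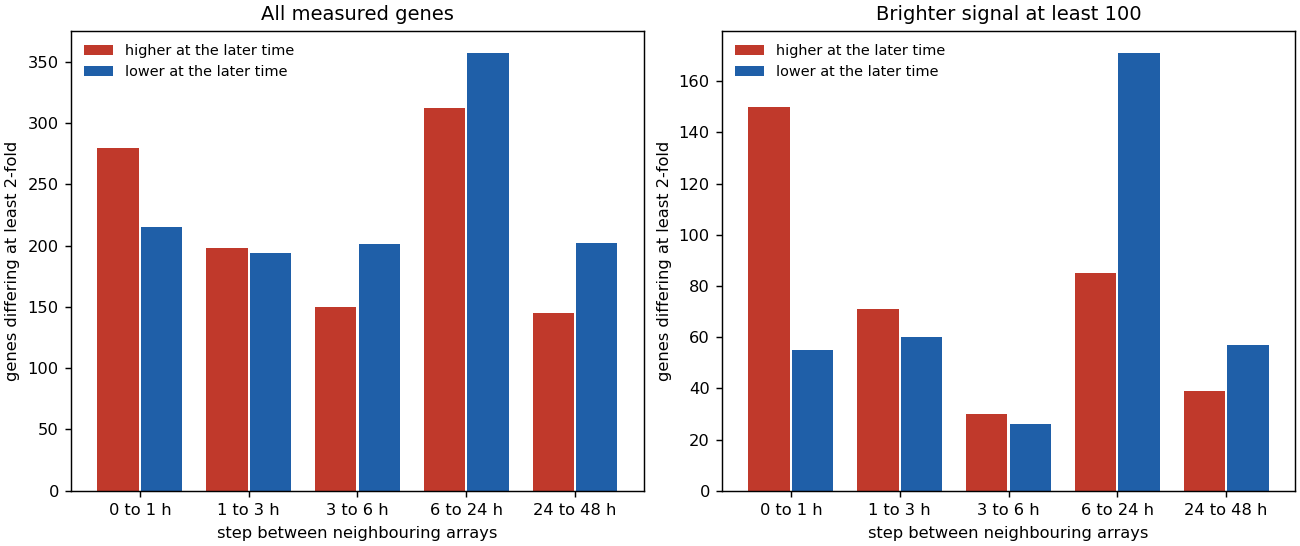
Number of genes (vertical axis) that differed at least 2-fold between neighbouring arrays (horizontal axis), higher (red) and lower (blue) at the later time, for all measured genes (left) and for genes whose brighter signal was at least 100 (right). The step from 24 to 48 h has 39 higher and 57 lower bright genes, against 85 and 171 in the step from 6 to 24 h.

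The 24 h and 48 h arrays were the most alike of the pairs that include 48 h, with a Pearson r of 0.981 over log2 signals against 0.964 for 6 h and 0.955 for 0 h, a description over genes of arrays that share probes and scaling. The 3' to 5' signal ratio, a measure of how far RNA was degraded or labelling stopped short, was 27.9 at 24 h and 37.0 at 48 h for ACTB, and 4.72 and 4.23 for GAPDH. It ran from 17.99 to 51.2 for ACTB over the 6 arrays, and its part in the results was not tested. The 9 spiked hybridisation controls had a median log2 ratio of 0.12 (-0.14 to 0.22). Of the 10 listed enterocyte markers, 9 had a probe set and were measured, and their summed signal was 14758 at 24 h and 12987 at 48 h. CDH17 and EPCAM made up much of both sums. Of the 9 ratios 7 were negative and 2 positive, and KRT20, SI and FABP1 fell past 2-fold. Of the macrophage markers, 12 of 17 were above the floor, with summed signals of 836 and 825 (621 to 999.7 over the 6 arrays). ITGAX, SPI1, HLA-DRA, PTPRC and C1QA were under the floor on both arrays, so that these leukocyte markers were near the bottom of the scale. LYZ was the brightest macrophage marker, at 366 and 412, and made up much of both sums. Among the 12 macrophage markers above the floor, 7 ratios were positive and 5 negative. AIF1 was the 1 macrophage marker past 2-fold, going from 96.5 to 43.0. In bulk RNA, fewer cells of a type and less RNA per cell cannot be told apart.

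The overlay of both arrays places each measured gene by its 2 signals.

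**Figure D2:**
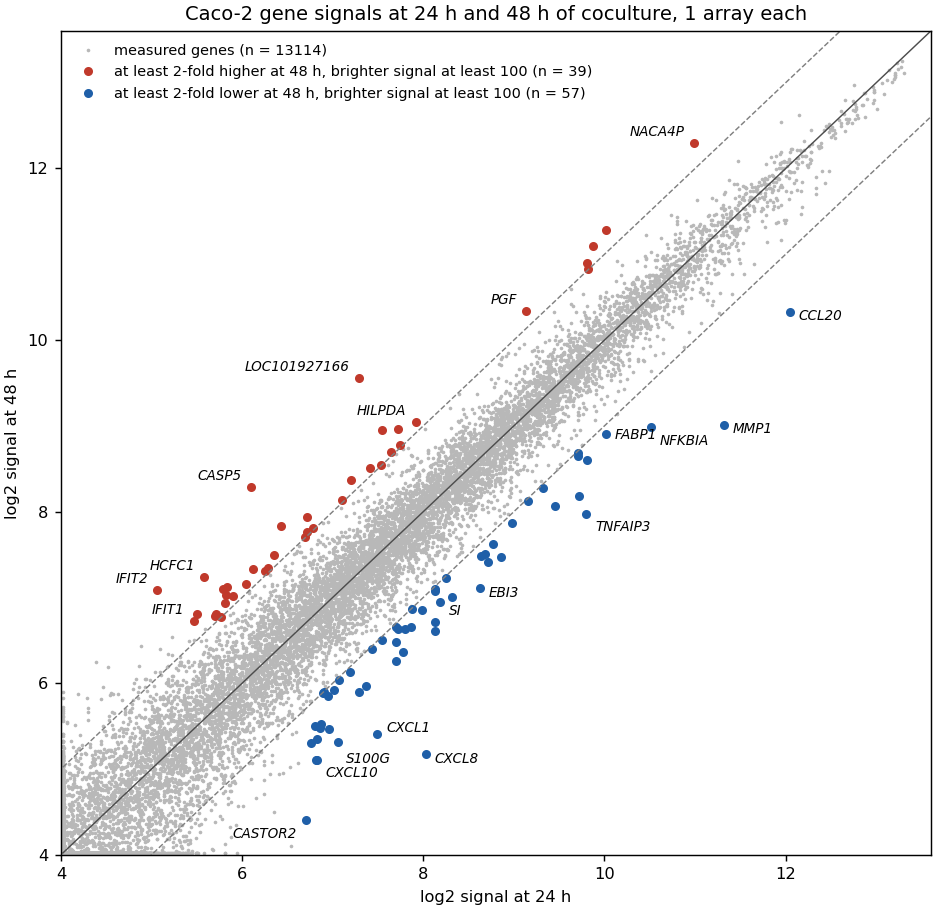
Log2 signal at 48 h (vertical axis) against log2 signal at 24 h (horizontal axis) for 13114 measured genes, floored at 16.2, with the line of equality (solid) and 2-fold lines (dashed). Red and blue points are the 39 bright genes that were higher and the 57 that were lower at 48 h; CCL20, MMP1 and NFKBIA have the highest 24 h signals among the blue points.

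The chemokine promoters are shown first, because chemokines and the inhibitors NFKBIA and TNFAIP3 were among the large falls. Sequences are from RefSeq on assembly GRCh38.p14, 5′ to 3′ on the gene's own strand, within the 250 bases before the annotated start site. Capitals mark matches to the kappaB consensus, the site that NF-kB dimers bind, or to its core GGAATTTCC, searched on both strands, with overlapping matches merged.

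CXCL8, chr4:73740458-73740506, plus strand: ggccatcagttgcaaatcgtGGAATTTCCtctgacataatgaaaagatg

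CXCL1, chr4:73869294-73869344, plus strand: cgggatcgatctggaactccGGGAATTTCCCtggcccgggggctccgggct

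CXCL2, chr4:74099243-74099293, minus strand: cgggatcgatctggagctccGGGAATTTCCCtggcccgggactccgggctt

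CXCL3, chr4:74038738-74038788, minus strand: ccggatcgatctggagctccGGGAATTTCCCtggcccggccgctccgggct

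CXCL10, chr4:76023590-76023694, minus strand: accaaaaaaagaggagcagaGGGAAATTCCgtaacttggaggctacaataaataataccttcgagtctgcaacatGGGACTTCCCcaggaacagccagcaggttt

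CCL20, chr2:227813743-227813792, plus strand: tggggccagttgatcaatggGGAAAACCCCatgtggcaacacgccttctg

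NFKBIA, chr14:35404801-35404850, minus strand: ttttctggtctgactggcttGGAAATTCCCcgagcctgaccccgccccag

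TNFAIP3, chr6:137867172-137867233, plus strand: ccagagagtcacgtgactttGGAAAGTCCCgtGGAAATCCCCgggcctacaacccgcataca

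The marked element of CXCL8 ended 82 bases before the start site, and those of CXCL1, CXCL2 and CXCL3 ended 68, 67 and 68 bases before it. CXCL1, CXCL2 and CXCL3 are near-identical neighbours in the chemokine cluster of chromosome 4, so their matching windows are not independent of each other, and their probe sets may share signal. TNFAIP3 carried 2 marked elements a pair of bases apart. The consensus lay in 11 of the 39 matched promoters of bright genes that fell (28.2%), in 3 of 26 that rose (11.5%), in 11.8% of 10577 matched measured genes and in 9.57% of all 27305 promoters of the same length. The core, which overlaps the consensus, lay in 6 of the 39 (15.4%: CXCL1, CXCL2, CXCL3, CXCL8, CXCL10 and NFKBIA), in 0 of 26, and in 0.397% of measured genes and 0.428% of all promoters. These are letter matches and no measure of binding. The windows of MMP1, RELB, IER3 and IFIT2 were not matched.

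Neutrophil-attracting CXC chemokines, ligands of CXCR1 and CXCR2, fell in 4 of the 5 measured members of 7 listed, with a median log2 ratio of -1.46, against -0.01 for all measured genes and 1.54% of them fallen. CXCL8, also known as interleukin-8, had signals of 8.50, 652, 925, 1541, 261 and 36.0 at 0, 1, 3, 6, 24 and 48 h. Its value rests on 1 measured probe set, of the _x_at kind, whose probes are shared with other transcripts, and the same holds for CXCL2. The 6 h value of CXCL8 was the highest, its 0 h value was under the floor, and from 24 to 48 h its log2 ratio was -2.86. CXCL1 had signals of 27.8, 1158, 667, 548, 179.6 and 42.5 at the same times (log2 ratio -2.08), highest at 1 h. At 48 h it stood near its 0 h level. CXCL3 went from 109 to 39.3 (-1.46) and CXCL2 from 253 to 116 (-1.12). PPBP, the fifth measured member, had a log2 ratio of -0.01.

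Of the other chemokines, 2 of 5 measured members of 12 fell and the median log2 ratio was -0.26. CCL20, the ligand of CCR6 on dendritic cells and Th17 cells, had signals of 453, 4303, 5519.7, 5321, 4229 and 1286. It was high on every array from 1 h to 24 h and lost most of that level on the second day, though it remained above its 0 h signal. CXCL10, which attracts T cells through CXCR3, had signals of 10.8, 133, 237, 255, 113 and 34.4 (log2 ratio -1.72). At 48 h it was above the floor, where it had not been at 0 h.

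Of the genes for inhibitors of NF-kB, TNFAIP3 and NFKBIA fell. TNFAIP3, the ubiquitin-editing enzyme A20, had signals of 190.1, 1802, 1778, 1819, 889.9 and 251. It was flat from 1 to 6 h and its 48 h level was nearest to that of 0 h, with log2 ratios of -1.83 to -1.57 for 48 h over 24 h in its 2 probe sets. NFKBIA had signals of 682, 3203, 3229.9, 3103, 1457 and 505, and its probe sets gave -1.53 to -1.08. The 48 h signal of NFKBIA was the lowest of the 6 arrays. Of the 15 measured members of the list of NF-kB inhibitors and subunits, 14 had a negative ratio and TNFAIP3 and NFKBIA passed 2-fold, with a median of -0.33. The subunit gene NFKB2 went from 182 to 91.2, just short of the size rule. RELB, another subunit gene (from 90.6 to 46.5), and NFKBIE, a further inhibitor gene (from 331 to 179), had log2 ratios of -0.96 and -0.89.

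Survival and adhesion targets of NF-kB had the next lowest median, -0.60 over 11 measured members of 15, of which 2 fell. SOD2, the mitochondrial superoxide dismutase, had signals of 289.8, 521, 504, 548, 464 and 177. It lay above its 0 h level from 1 to 24 h and was lowest at 48 h. PLAUR, the urokinase receptor, went from 146 to 70.3, with log2 ratios of -1.32 to -0.53 over 3 probe sets. IER3, an early response gene that protects against cell death, went from 1123 to 564 (-0.99), ICAM1, the leukocyte adhesion molecule, from 225 to 126 (-0.83), and CFLAR, an inhibitor of caspase 8, from 547 to 361 (-0.60). The 12 measured probe sets of CFLAR ran from -1.06 to 0.65.

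**Figure D3:**
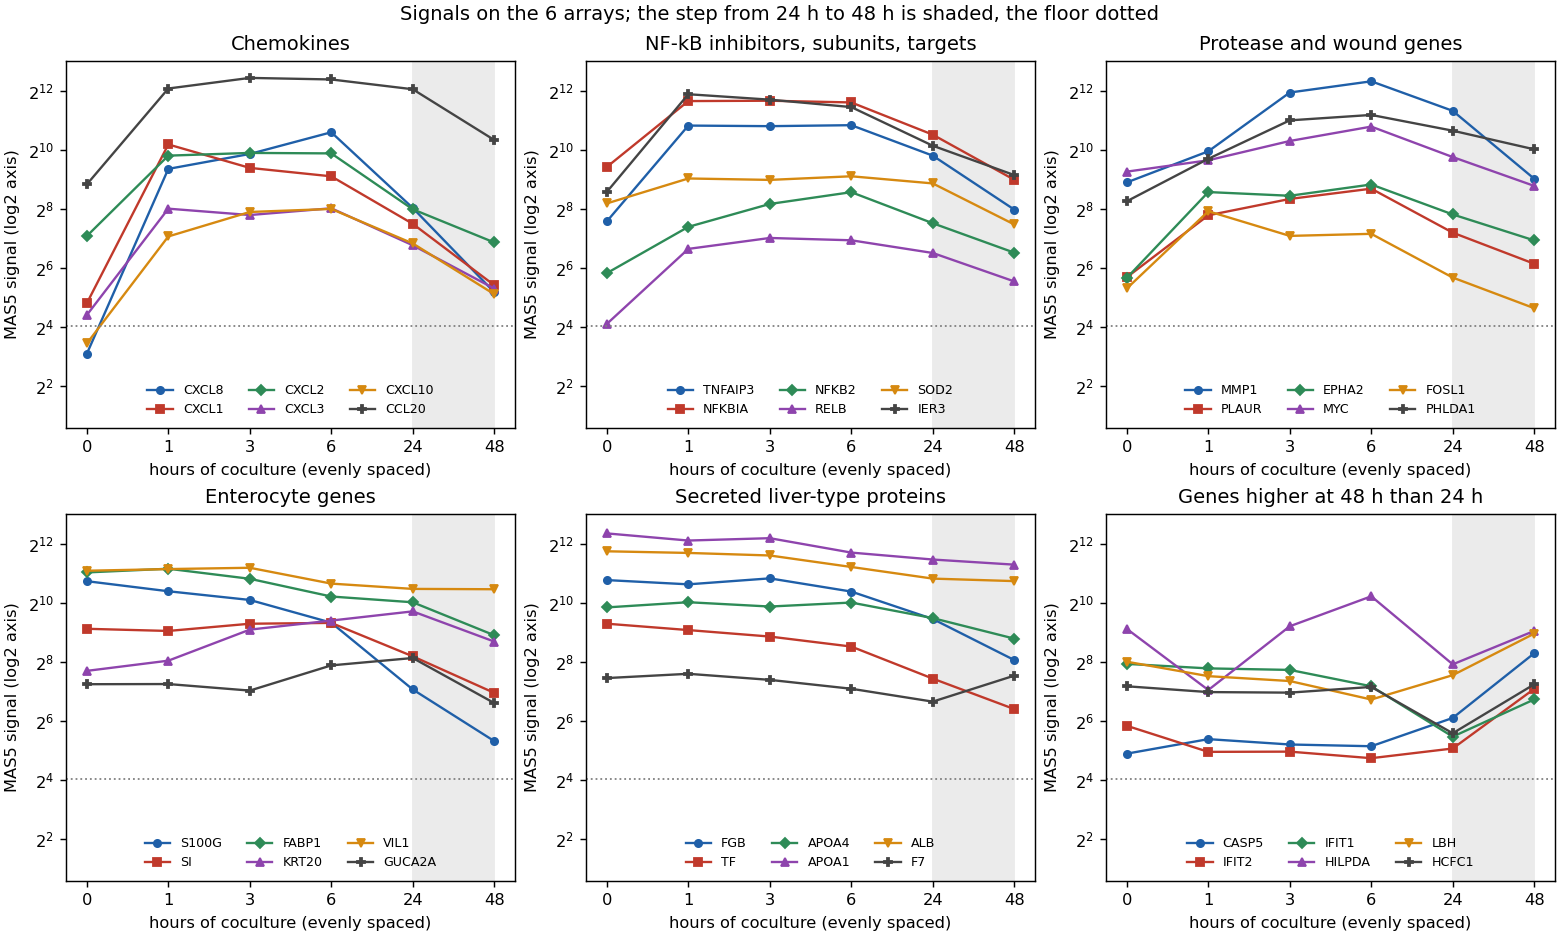
MAS5 signals on a log2 axis (vertical) on the 6 arrays, 1 per time, drawn evenly spaced by hours of coculture (horizontal), with the step from 24 to 48 h shaded and the floor of 16.2 dotted. Chemokine and NF-kB genes and MMP1 drop across the shaded step, several of them after a fall that began between 6 and 24 h, S100G and FGB continue down, VIL1 and ALB stay level, and CASP5, IFIT2, LBH and HCFC1 go up.

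Many of the bright genes that fell on the second day had been raised early. Between 0 and 6 h, on arrays that the step does not use, 26 of the 57 (45.6%) were at least 2-fold higher at 6 h, against 5.04% of all 7374 bright genes, and 3 (5.26%) were lower, against 5.17%. Of the 39 that rose on the second day, 4 (10.3%) had been higher and 6 (15.4%) lower at 6 h than at 0 h. This count was chosen after values were seen. Set beside 0 h, which brings in the 48 h array again, 6 of the 57 were still at least 2-fold higher at 48 h, 30 lay within 2-fold and 21 were at least 2-fold lower. Of the 39, 22 were at least 2-fold higher at 48 h than at 0 h, 15 lay within 2-fold and 2 were lower. Of all bright genes, 5.17% were higher and 4.72% lower at 48 h than at 0 h. The 48 h signal was the lowest of the 6 arrays for 37 of the 57, against 1392 of all 7374, and the highest for 30 of the 39, against 1587 of 7374; the choice of these genes by their 48 h signal largely sets both counts.

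MMP1, the interstitial collagenase that cuts fibrillar collagen, had the largest fall of the bright genes after CXCL8 and CASTOR2. Its signals were 475, 985, 3917, 5096, 2547 and 517. It peaked at 6 h and at 48 h stood close to its 0 h level, with a log2 ratio of -2.30 for the second day. The list of matrix proteases, the urokinase system and integrins had 3 of 16 measured members fallen, 1 risen and a median of -0.28. The other falls were PLAUR and the dim ITGA3 (from 34.6 to 16.7), and the laminin and collagen receptors ITGA6 (from 777 to 421) and ITGA2 (from 1464 to 795) had log2 ratios of -0.88 and -0.88. ITGB8, an integrin beta chain that activates TGF-beta, rose from 147 to 330.1, but its 3 probe sets ran from -0.89 to 1.17.

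Immediate early transcription factors, which are made within minutes of growth factor or cytokine signals, had 15 of 19 ratios negative and a median of -0.16. Of all measured genes 51.2% had a negative ratio. JUNB (0.42) and EGR1 (0.36) had the highest of the 4 positive ratios. Only FOSL1, a partner of JUN in AP-1, passed 2-fold in that list, going from 50.8 to 24.8. MYC, the growth-promoting factor, had signals of 611, 798, 1255, 1759.7, 861 and 437, highest at 6 h and lowest at 48 h (log2 ratio -0.98). The orphan receptor gene NR4A1 (-0.97), FOS (-0.80) and KLF6 (-0.80) also lay below 0 on the log2 scale without passing the rule. Dual-specificity phosphatases and other feedback genes of Ras signalling had 13 of 15 ratios negative, a median of -0.24 and 0 members past 2-fold. DUSP4, which removes phosphates from ERK, went from 226 to 139.5. The list of the EGF receptor family and its ligands also holds other genes, such as the ephrin receptor EPHA2. Of its 9 measured members 0 passed 2-fold, and the ends were EPHA2 (-0.88) and EGFR (0.67), the latter with probe sets from -0.24 to 1.20. TGFB1, which encodes transforming growth factor beta, fell from 436 to 198 (-1.14), the single call among 19 measured TGF-beta and BMP genes, whose median was -0.13.

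Enterocyte genes fell in part. S100G, or calbindin-D9k, which carries calcium through absorptive cells, had signals of 1699, 1341, 1093, 641, 134 and 39.8. It went down on every later array of the course, and the second day added a log2 ratio of -1.75. Among brush border and microvillus genes 4 of 23 measured members fell and 0 rose, with a median of -0.23. SI, the sucrase-isomaltase, had signals of 556, 528, 626, 638, 291 and 123 (-1.24), and FABP1, a fatty acid carrier, had 2086, 2275, 1797, 1185, 1035 and 478 (-1.12, with -0.59 in a second probe set). Both were at their lowest at 48 h. KRT20, a keratin of mature enterocytes, had signals of 207, 263, 545, 674, 836 and 412. It climbed to its highest level at 24 h and then fell (-1.02). The fourth call was MYO7B, a myosin of the microvillus tip complex, close to the floor (from 34.9 to 17.1). VIL1, which bundles actin in microvilli, went from 1417 to 1406 (-0.01), while ALPI, intestinal alkaline phosphatase (0.82), and PDZK1, a scaffold of membrane transporters (0.85), had positive ratios short of 2-fold.

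Transport and ion genes had few calls. SLC10A2, the ileal bile acid transporter, had signals of 241, 289, 340.5, 224, 52.2 and 20.8, and fell on the second day to near the floor (-1.33). It was the single call among 28 measured nutrient and ion transporters (median -0.13), in which SLC7A9, a cystine transporter subunit, went from 859.6 to 437 (-0.97) and CFTR, the chloride channel, from 1155 to 734 (-0.65). SLC39A4, the zinc importer, fell from 572 to 279, and of 20 measured calcium, iron and zinc genes S100G and SLC39A4 fell and the metallothionein MT1F rose from below the floor to 41.7. Metallothionein genes are near-identical paralogs, and MT1X went from 31.4 to 2.73. GUCA2A, the gut hormone guanylin, which regulates salt and water secretion, had signals of 151, 152, 130.2, 235, 279.8 and 97.2. Its highest level was at 24 h and its lowest at 48 h (-1.53). MUC13, a membrane mucin, fell from 637 to 309 and its other probe set gave a lower ratio still (-1.54). In the drug metabolism list 1 of 24 measured members fell, UGT2B17 (from 33.1 to 14.2), a glucuronosyltransferase with near-identical paralogs, and the median was -0.15.

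Transcripts of proteins that Caco-2 cells share with hepatocytes were mostly slightly lower. The liver-type serum list had 16 of 20 ratios negative, against 51.2% of all measured genes, and a median of -0.19. Its 1 fallen member was TF, which encodes transferrin. TF had signals of 626, 539, 463, 366, 173 and 84.4 (-1.03, with -0.33 in its other probe set), lower on each later array. ALB (-0.08) and APOA1 (-0.17) were near level, and APOA4, an apolipoprotein of chylomicrons, had a ratio of -0.69. FGB, the beta chain of fibrinogen, had signals of 1743, 1578, 1815, 1331, 699 and 267 (-1.39), although a second probe set gave -0.27. It was the single call among 16 measured coagulation genes, of which F7, coagulation factor VII, went the other way, from 100.5 to 185 (0.88) and 1.40 in its other probe set. C4BPA, an inhibitor of complement, had signals of 496, 541, 690.0, 827, 897 and 389. Its signal was highest at 24 h and fell to its lowest on the second day (-1.21), the single call among 13 measured acute phase and defence genes.

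Genes of lipid metabolism had few calls, in both directions. Of 15 measured cholesterol synthesis genes 0 passed 2-fold, 11 ratios were negative and the median was -0.28. HMGCS1, which makes HMG-CoA, went from 2469.7 to 1502 (-0.72; other probe set -0.96), whereas for IDI1 and SC5D, later enzymes of the pathway, the probe sets disagreed in sign (-0.77 to 0.29 and -0.76 to 1.04). HILPDA, an inhibitor of the lipase ATGL at lipid droplets, had signals of 554, 132, 589.5, 1191, 241 and 528. It was lowest at 1 h, peaked at 6 h and rose again on the second day, by 1.13 and 1.36 in its 2 probe sets. It was the single call among 19 measured genes of fatty acid synthesis and lipid droplets (median -0.21), where ACSS2, which makes acetyl-CoA from acetate, had -0.79 and MTTP, which loads lipid onto apolipoprotein B, had -0.59. Fatty acid oxidation had a median of 0.10 over 17 measured genes and 1 rise, EHHADH, a peroxisomal enzyme, from 105 to 217. GPD1 (from 116 to 44.5) and AGPAT2 (from 505 to 233), enzymes that make the glycerol backbone and phosphatidic acid for triglyceride, fell. Both were picked after their values were seen. GPD1 rests on 1 measured probe set, and the other probe set of AGPAT2 gave -0.33.

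Cytokine genes and their receptors had 3 falls and 0 rises among 25 measured members, with a median of -0.18. That list median was 0 when all probe sets of 1 gene were combined by their median. Probe sets under the floor on both arrays count there as unchanged. EBI3, a subunit shared by interleukin-27 and interleukin-35, had signals of 86.5, 132, 98.6, 209, 395 and 138. It was highest at 24 h and fell on the second day (-1.52). IL32 (from 57.4 to 25.3) and IL15RA (from 33.0 to 11.5), the other falls, were dim. IL4R, the interleukin-4 receptor, went from 277 to 145 (-0.93). Among 20 measured JAK-STAT genes the single call was a dim rise of STAT4 (from 10.8 to 35.0), and of 17 measured MHC class I genes 0 passed 2-fold.

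Interferon-stimulated genes did not move as 1 group. Of 21 measured members of 29, IFIT2 and IFIT1 rose, ISG20 fell, 12 ratios were positive and 9 negative, and the median was 0.06. The promoters of the neighbouring IFIT genes of chromosome 10 are shown because IFIT1 and IFIT2 were the rises; the window of IFIT2 was not matched. Capitals mark matches to the interferon response element GAAANNGAAA, which here lie on the opposite strand to the letters given.

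IFIT1, chr10:89392487-89392549, plus strand: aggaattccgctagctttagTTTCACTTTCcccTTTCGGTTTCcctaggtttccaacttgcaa

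IFIT3, chr10:89327821-89327904, plus strand: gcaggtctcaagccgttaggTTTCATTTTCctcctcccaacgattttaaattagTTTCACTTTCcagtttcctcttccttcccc

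IFIT5, chr10:89414503-89414567, plus strand: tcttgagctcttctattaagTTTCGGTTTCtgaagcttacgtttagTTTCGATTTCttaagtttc

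That element lay in 2 of the 26 matched promoters of bright genes that rose (7.69%: CASP5 and IFIT1), in 2 of 39 that fell (5.13%: CXCL10 and ISG20), in 2.21% of measured genes and in 3.07% of all promoters. IFIT2, whose product binds viral RNA, had signals of 57.0, 30.9, 31.1, 26.6, 33.4 and 136. It was lower on the arrays from 1 to 24 h than at 0 h and was highest at 48 h. IFIT1, which binds RNA lacking cap methylation, had signals of 244, 219, 212, 144, 44.1 and 106. Its 48 h level was above that of 24 h (1.26) and below those of 0 to 6 h. IFIT3 (from 116 to 178, 0.62), IFIT5 (from 28.3 to 48.8, 0.79) and the virus tether BST2 (from 115 to 184, 0.68), named after their values were seen, had positive ratios short of the rule. A second probe set gave 0.06 for IFIT3 and 0.34 for IFIT5. ISG20, an exonuclease, fell from 165 to 62.5, with log2 ratios of -2.51 to -1.40 in its probe sets, and GBP1, a guanylate-binding protein, had -0.80.

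CASP5, an inflammatory caspase that senses lipopolysaccharide in the cytoplasm and opens the way to pyroptosis, had signals of 29.6, 41.7, 36.7, 35.3, 68.5 and 313. It was dim on all arrays up to 24 h and 4.57-fold higher at 48 h (log2 ratio 2.19), the only 1 of 21 measured apoptosis and death receptor genes to pass 2-fold. LOC101927166, an uncharacterised non-coding RNA gene, had the largest rise of the bright genes, with signals of 103, 90.5, 102, 153, 156 and 753 (2.27). Its 48 h value stood apart from all earlier ones. Both genes rest on 1 measured probe set.

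Other rises with a single measured probe set were those of HCFC1, a chromatin-bound cofactor of transcription (from 47.8 to 151), LBH, a transcription cofactor of development (from 187 to 496), ZHX2, a zinc-finger homeobox repressor (from 86.4 to 229), SLC17A4, an anion transporter of the intestine (from 55.2 to 137), and P2RY6, a receptor for UDP (from 56.6 to 130.4). HCFC1, ZHX2, SLC17A4 and P2RY6 had their lowest signal of the course at 24 h. At 48 h HCFC1 and ZHX2 stood near their 0 h signals of 144 and 211. SLC17A4 and P2RY6 were still below their 0 h signals of 229 and 224. LBH had signals of 256, 183, 163, 106, 187 and 496, and its 48 h level was the highest. TBCCD1 (from 105 to 245) and the antisense RNA HECW2-AS1 (from 81.8 to 179.9) also rose; without strand information an antisense RNA can be confused with its partner gene. Chosen after their values were seen, DEPTOR, an inhibitor of mTOR, rose from 214 to 439, the clock gene PER2 from 185 to 373, the ubiquitin ligase adaptor KLHL24 from 210.1 to 498 and EMILIN3, an extracellular matrix glycoprotein, from 170.2 to 364. The log2 ratios of the 5 measured probe sets of KLHL24 ran from 0.12 to 1.24. LAMA1, a laminin chain, rose from 69.4 to 161, though its probe sets ran from -0.25 to 1.21. Its 24 h signal was the lowest of the course, and at 48 h LAMA1 was still below its 0 h signal of 345.

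Several of the brightest rises, like the falls of CXCL8 and CXCL2, came from _x_at probe sets. These made up 10 of the 39 bright rises (25.6%), 4 of the 57 bright falls (7.02%) and 6.44% of all bright genes. NACA4P, a pseudogene of a ribosome-associated protein, rose from 2032 to 5041, and PRR11, a protein of cell cycle progression, from 1036 to 2495, with probe sets from 0.26 to 1.27. PGF, placental growth factor, rose from 562 to 1292, while its other probe set gave 0.01. It was the only call among 30 measured hypoxia and glycolysis genes. SLC35E1 (from 938 to 2193), ZNF721 (from 898 to 1916) and ZNF160 (from 905 to 1812), named after their values were seen, likewise had another probe set with a ratio between -0.25 and 0.09. The 3 measured probe sets of ZNF160 ran from -0.25 to 1.21.

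Of the remaining falls, several had support from other probe sets. TRIM15, a focal adhesion protein of the tripartite motif family, had signals of 244, 769, 1058, 1306, 844 and 290.4. It rose over the first 6 h and fell back towards 0 h on the second day, with ratios of -1.54 to -0.88 over 3 probe sets. HSPA6, a stress-inducible HSP70 chaperone, had signals of 22.6, 42.4, 49.7, 116, 279.9 and 105. It rose to 24 h and fell on the second day by 1.42 and 1.66 on the log2 scale in its 2 probe sets, while the 19 measured heat shock genes, HSPA6 included, had a median of -0.01. CASTOR2, a sensor of arginine upstream of mTORC1 (from 104 to 21.1), and AXIN1, a scaffold of the beta-catenin destruction complex (from 113 to 40.9), rest on 1 measured probe set. ST3GAL2, a sialyltransferase, fell from 208 to 76.4, with ratios of -1.44 to -0.40 over 4 probe sets. Picked after values were seen, DHRS9, a retinol dehydrogenase, had signals of 42.6, 118, 405, 499, 113 and 34.5, and ARL14, a small GTPase, 299, 2559, 2799, 1694, 280.4 and 136. Both had peaked at 3 or 6 h. The serine proteases PRSS22 (from 409 to 182) and TMPRSS4 (from 419.7 to 171), the protease inhibitor SERPINE2 (from 304 to 149.9), the Ras relative RRAS (from 318 to 129), the purine synthesis enzyme GART (from 399 to 178) and KYNU, an enzyme of tryptophan breakdown (from 117 to 46.1), picked in the same way, fell too. Other probe sets gave smaller ratios for GART (-1.16 to -0.13 over 7), DHRS9 (-1.71 to -0.16 over 3) and KYNU (-1.34 to -0.47 over 2).

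Stress pathways of the endoplasmic reticulum shifted little. Unfolded protein response genes had 17 of 23 ratios positive, a median of 0.19 and 0 members past 2-fold. PDIA4, a disulfide isomerase, went from 335 to 662 (0.98, with 0.12 in its other probe set), HERPUD1, which helps clear misfolded proteins, from 1700.5 to 2813 (0.73), and HSPA5, the chaperone BiP, from 3666 to 4495 (0.29). HYOU1, another chaperone of that compartment, lay on the other side (-0.70). The integrated stress response and amino acid synthesis list had 16 of 23 ratios positive and a median of 0.25. Its 1 rise was CHAC1, which degrades glutathione (from 30.4 to 66.0), DDIT3, the factor CHOP, went from 312 to 438 (0.49), and ATF3 had a ratio of 0.04, the highest of its 3 probe sets (-0.78 to 0.04). Of 16 measured p53 targets ZMAT3 (from 75.4 to 26.2) and PLK3 (from 58.6 to 26.7) fell, and for both the probe sets differed in sign. TXNIP, which binds thioredoxin, went from 163 to 83.0 (-0.97) in a list of 24 antioxidant genes with 0 calls.

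Ribosome biogenesis and DNA replication genes shifted in opposite directions by small amounts. In the nucleolar list 23 of 25 ratios were negative against 51.2% of all measured genes, with a median of -0.25. UTP20 (from 58.1 to 19.95) and RRP9 (from 85.1 to 30.6), both of the small-subunit processome, fell and were dim, and DDX21, an abundant nucleolar helicase, went from 5161 to 3323 (-0.63). In the DNA replication list 27 of 32 ratios were positive, with a median of 0.21, and in the mitosis list 23 of 33, with a median of 0.19. Neither list had a member past 2-fold. PCNA, the sliding clamp of DNA polymerases, had signals of 986, 854, 611, 564, 792 and 1179. Its 48 h value was the highest of the course and its 6 h value the lowest. MCM7 (from 156 to 235), MCM5 (from 98.8 to 136) and RFC2 (from 66.9 to 102), which unwind DNA or load the clamp, had ratios of 0.59, 0.46 and 0.61. MKI67 had 0.67 and TOP2A 0.41, but their probe sets ran from -0.61 to 0.67 and from -0.13 to 0.56.

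**Figure D4:**
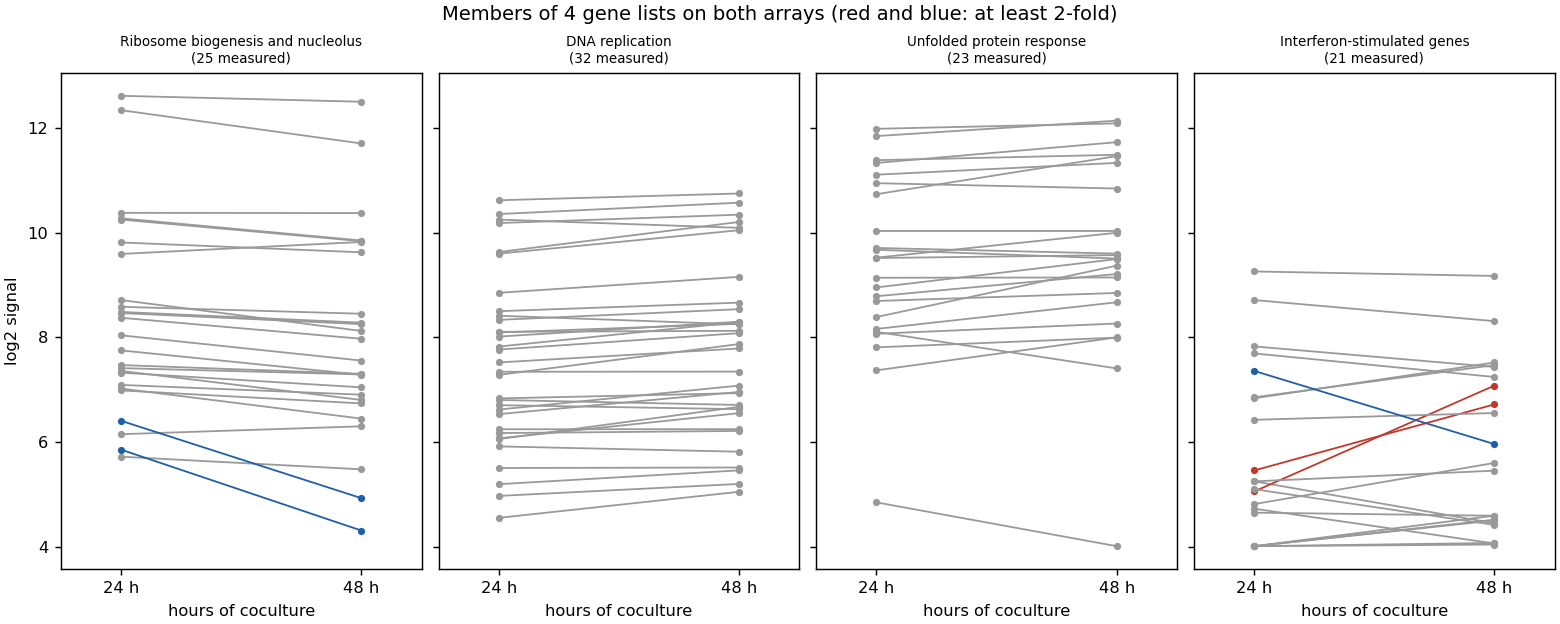
Log2 signal (vertical axis) at 24 h and 48 h (horizontal axis) of each measured member of 4 gene lists, with lines joining the 2 arrays, red for members at least 2-fold higher and blue for members at least 2-fold lower at 48 h. Of the 25 nucleolar members 23 slope down, 27 of the 32 replication members slope up, and the 21 interferon-stimulated genes slope both ways.

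Across all 45 lists, 35 medians were negative and 10 positive, 15 lay within 0.1 of 0, and 18 lists had no member past 2-fold. The lowest 6 medians belonged to both chemokine lists, both NF-kB lists, the matrix list and cholesterol synthesis, and the highest to the integrated stress response. Lists with 0 calls and a median near 0 included tight and adherens junctions (-0.09), mitochondrial ribosomal proteins (-0.06), proteasome subunits (0.02) and antioxidant genes (-0.03). Lineage transcription factors of intestine and liver also had 0 calls; CDX2 had a ratio of 0.49 and FOXA2 went from 515 to 914 (0.83). The respiratory chain list had 23 of 32 ratios positive and a median of 0.12. The common reference genes ACTB and GAPDH had ratios of -0.21 and -0.15.

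**Figure D5:**
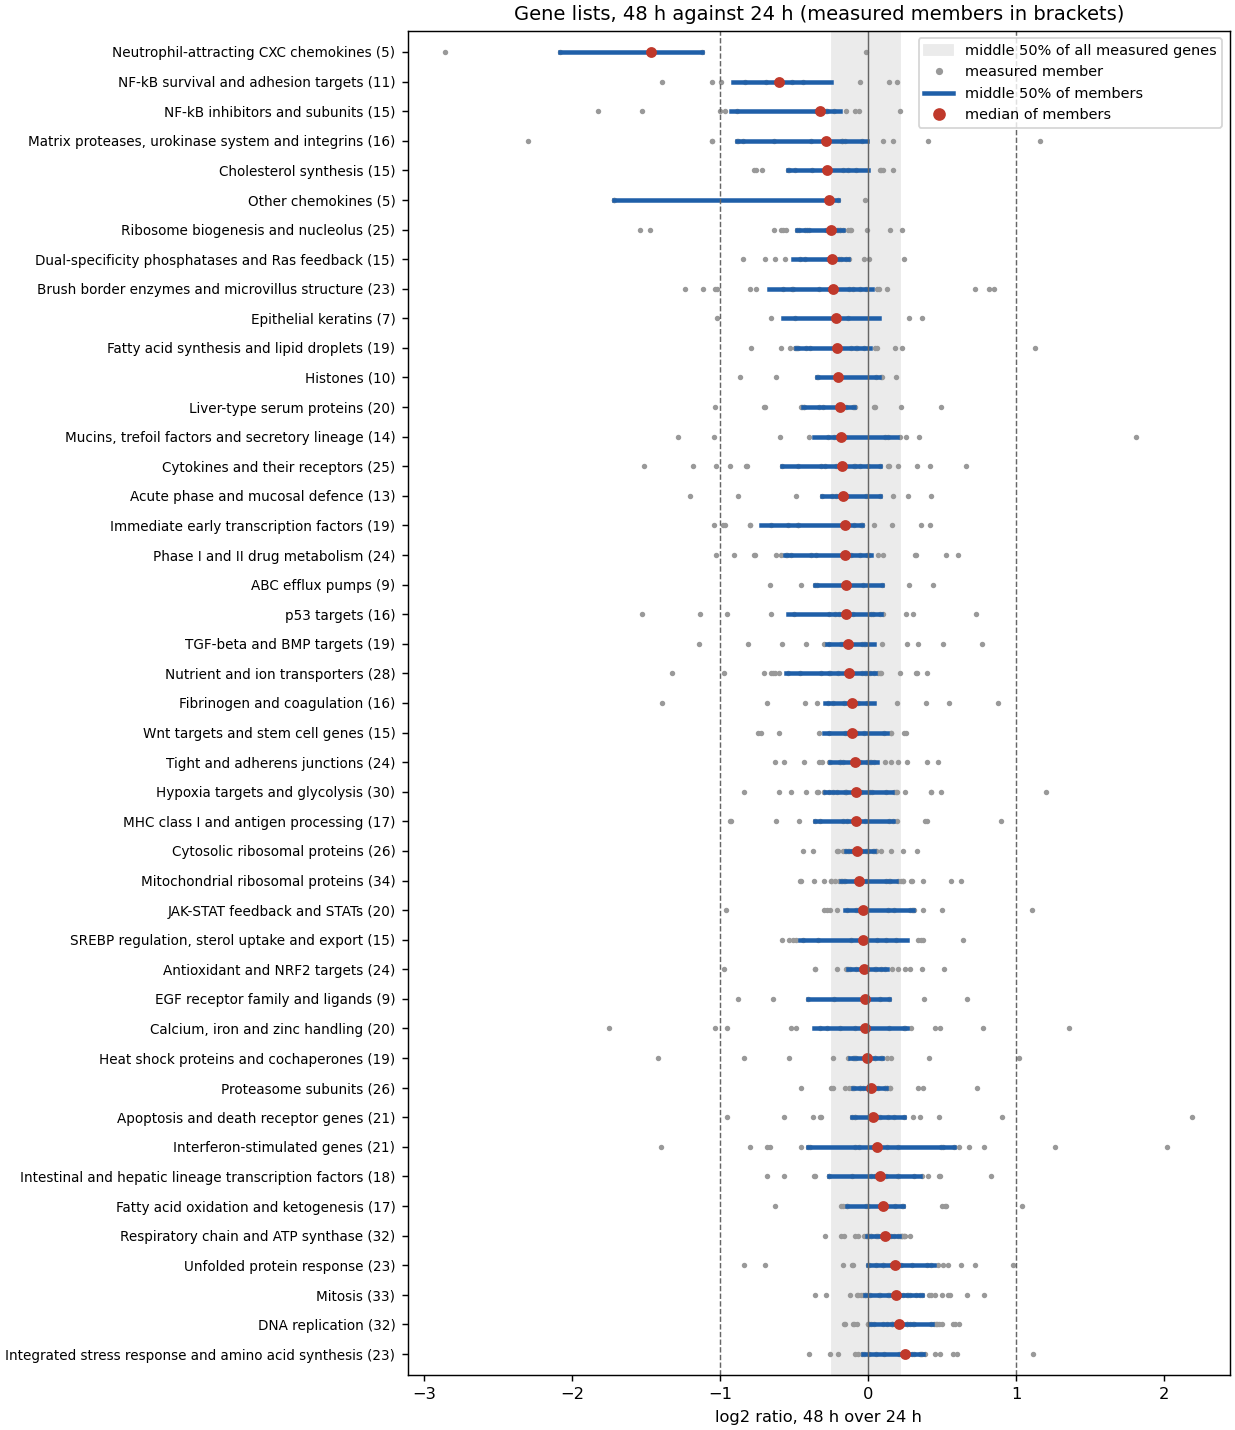
Log2 ratio of 48 h over 24 h (horizontal axis) for the measured members of each of the 45 gene lists (rows, with the number of measured members in brackets), as grey points, with the middle 50% of members (blue bar) and their median (red point). The grey band holds the middle 50% of all measured genes, and the lower quartiles of both chemokine lists and both NF-kB lists are the lowest of the 45.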

How the data were processed

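The authors deposited intensities on a linear scale, MAS5 signals per probe set of an Affymetrix array, with MAS5 named in the submitters' processing notes. For its version, target intensity and detection flags the sources used here give nothing. MAS5 subtracts mismatch signal and scales each array, so that dim signals are noisy and the amount of RNA in a cell is lost. The 2% trimmed mean was 93.8 on each array, and no scaling was added. RNA was 4 µg per array, per the labels' protocols.

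The platform annotation gave 1 symbol for 41097 of 54675 probe sets, several for 1801 and none for 11777; 41043 were matched to RefSeq (GRCh38.p14), and 62 were controls. Signals were floored at the 50th percentile, 16.2, and log2 was taken. Each of 19775 genes was represented by its brightest probe set on average over the 6 arrays (10523 had several). Python 3.11.15, numpy 2.4.6 and pandas 2.3.3 were used. The size rule was run on simulated data, with planted changes larger than the rule and in bright genes only. Such changes could hardly miss the rule. No dim gene had a planted change and false calls were not counted, so the run says nothing of dim genes or of false calls.

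The 45 gene lists, with 1069 entries, of which 100 had no probe set of their own symbol here, and the tests were chosen with earlier results of these data known. Genes were named by a rule: the 15 largest rises and falls among bright genes with 1 measured probe set or another probe set past 1.5-fold the same way, up to 4 members of each list past 1.5-fold, and a fixed set. It gave 152 genes, of which 66 had at least 2 measured probe sets, and in 47 all moved the same way. Another 36 genes were picked after values were seen, CFLAR, ITGA2, ITGA6, KLF6, NFKBIE, PCNA, PDZK1 and PPBP among them. The precision is limited by the number of arrays. Alternatives changed the normalization, floor, pseudocount, probe set choice and fold.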

Additional observations from a re-analysis of the deposited data

Results flagged for a closer look

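Probe sets that carried no gene symbol, or several, control probe sets left out, were outside the gene-level comparison, and they too held signals that differed between the arrays. Of 13522 such probe sets, 1673 reached a signal of 100 on the brighter array, of which 19 were at least 2-fold higher at 48 h than at 24 h and 17 at least 2-fold lower. They are named here by number alone, and there is no control array against which the 19 could be set.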

How the results depend on the processing

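Counts depended on the size of dim signals. The 145 higher and 202 lower genes became 803 and 1003 with the floor at the 30th percentile (6.38), 48 and 73 at the 65th (37.5), 95 and 160 with the floor value as a pseudocount, and 72 and 110 when probe sets of 1 gene were combined by their median. They were 39 and 57 with a brighter signal of at least 100, 798 and 989 at 1.5-fold and 15 and 19 at 3-fold. Quantile normalization (154 and 201), a common median (143 and 214) and leaving out _x_at and _s_at probe sets (125 and 172) stayed within 1.5 times. Of the 39 and 57 bright calls, that median kept 18 and 34, and leaving out those suffixes kept 25 and 41. The median over probe sets took in those under the floor on both arrays. These count as unchanged, so a lower ratio there need not mean that measured probe sets disagree.

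List medians moved by more than 0.31, the spread between probe sets, in 6 of 360 settings. Those of the CXC chemokines were -1.78 after quantile normalization. Other chemokines were -0.90 at the 65th percentile floor and -0.96 among bright genes. NF-kB survival and adhesion targets had -0.25 both with the median over probe sets and without the suffixes, and immediate early factors -0.47 without them. No named gene past 2-fold changed sign in the alternatives tried. Another floor or a pseudocount cannot reverse the ratio of a given probe set. Quantile normalization and the common median shifted the median ratio by only 0.0076 and -0.0124. Most of these settings could therefore hardly change a sign. Of 30 lists with a median of at least 0.1 in size, 4 lost their sign in at least 1 setting: Wnt targets and cytokines (0 with the median over probe sets), p53 targets (0.03 without the suffixes, 0.02 among bright genes) and histones (0.03 at the 65th percentile floor, 0.07 among bright genes). The causes were not tested. No paired analysis was possible because each time has 1 array, and for the same reason no array could be left out.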

Other observations

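NLN, a neurolysin peptidase, came close to the size rule among bright genes, with a signal of 794 at 24 h and 1547 at 48 h, though the log2 ratios of its 5 measured probe sets ran from -0.47 to 1.09. TP53I3, a p53-inducible oxidoreductase, fell from 279.8 to 134 although the list of p53 targets did not hold it, and TRIM29, a relative of TRIM15, fell from 156 to 59.5 with ratios of -1.39 and -0.91 in its 2 probe sets. SCML1 fell from 837 to 401, and TWNK, the mitochondrial DNA helicase, from 207 to 89.4. TM4SF4, a membrane protein of intestine and liver, fell from 219.8 to 82.2. SLC35E4, a member of the solute carrier family, fell from 124 to 44.3, though its other probe set gave -0.11. These genes were picked after their values were seen.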
